A study of Mus musculus with 17 samples.

Results

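The transcripts described here are 31 genes of the type I interferon response and of class I antigen presentation, taken by symbol from a table of 20621 genes measured in 17 RNA-seq libraries. They were listed by name, and no measured value enters the rule, but the list was chosen with earlier results of these data known. They fall into 4 sensors of foreign RNA or their helper, 7 transcription factors and partners, 13 antiviral effectors and 7 genes of antigen processing and presentation. All 31 were present in the table and 30 passed the filter on low counts. The gene left out by that filter was Ifit3, with at most 8 counts in a library.

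The cells were mouse embryonic stem cells of the line E14, either RNAPII-mut or WT. RNAPII-mut cells, called mutant below, have the genotype slow/slow, which the series title ties to slow elongation by RNA polymerase II. Every culture was grown without feeders on gelatine in 10% serum with 1000 U per mL of the cytokine LIF. The inhibitors of 2i medium, 1 uM PD0325901 against MEK and 3 uM CHIR99021 against GSK3, were added for 0, 1, 2 or 7 days, and day 0 stands for serum and LIF alone. Each of 7 groups of genotype and day had 2 libraries and the mutant at day 1 had 3. The labels name no further mutant line, so an effect of the mutation and one of its cell line cannot be told apart. The labels do not say whether replicates were separate cultures, so that p-values measure the spread between these libraries, which may be technical.

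In most mouse cells, viral RNA is bound by the helicases RIG-I (gene Ddx58) and MDA5 (Ifih1), which act through MAVS to switch on interferon beta. Secreted interferon then acts through IFNAR1 and IFNAR2, the kinases JAK1 and TYK2 and a complex that contains STAT2 and IRF9, which binds a GAAA-containing element in the promoters of the interferon-stimulated genes. Embryonic stem cells are known for a weak interferon response and for low class I molecules at the surface, while some antiviral genes, the Ifitm family among them, are active in them without interferon.

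The promoter windows that carry the element are shown for 4 members that hold it and that edgeR called in at least 1 comparison below without a replicate term. The motif searched was GAAA, any 2 bases and GAAA again, on either strand, in RefSeq windows from 250 bases before to 50 bases after each gene's start (build GRCm38.p6). Windows matched 25 of the 31 members by symbol, with none for Dhx58, Parp9, Parp14, Usp18, Rtp4 and Tap2. The motif was in 11 of 29 member windows (37.9%) and in 1126 of all 32817 windows (3.43%). By gene, it was in 11 of 25 members (44%) and in 3.99% of 27025 genes. The palindromic motif TTCNNNGAA, which STAT dimers can bind, was in 5 of 29 member windows (17.2%) and in 8.29% of all windows. The windows below run from 250 bases before to 30 bases after the start, on the gene's strand, with the matches in capitals.
Ifitm3, chr7:141010715-141010994, minus strand: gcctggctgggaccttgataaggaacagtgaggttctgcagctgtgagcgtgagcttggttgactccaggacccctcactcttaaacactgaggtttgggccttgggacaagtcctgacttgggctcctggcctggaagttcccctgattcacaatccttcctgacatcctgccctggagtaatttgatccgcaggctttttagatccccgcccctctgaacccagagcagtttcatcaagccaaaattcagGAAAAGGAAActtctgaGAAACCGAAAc
Stat2, chr10:128270248-128270527, plus strand: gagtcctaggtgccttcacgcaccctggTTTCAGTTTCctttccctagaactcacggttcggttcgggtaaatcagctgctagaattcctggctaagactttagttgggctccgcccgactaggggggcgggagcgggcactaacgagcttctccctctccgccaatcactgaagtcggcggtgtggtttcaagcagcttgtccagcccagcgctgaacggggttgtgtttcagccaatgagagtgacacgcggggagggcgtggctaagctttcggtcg
Bst2, chr8:71537443-71537722, minus strand: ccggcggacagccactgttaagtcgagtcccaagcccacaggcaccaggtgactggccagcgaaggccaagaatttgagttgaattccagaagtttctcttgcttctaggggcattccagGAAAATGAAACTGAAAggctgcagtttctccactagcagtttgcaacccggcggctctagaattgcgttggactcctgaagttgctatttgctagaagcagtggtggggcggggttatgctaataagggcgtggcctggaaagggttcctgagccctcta
Ddx58, chr4:40239796-40240075, minus strand: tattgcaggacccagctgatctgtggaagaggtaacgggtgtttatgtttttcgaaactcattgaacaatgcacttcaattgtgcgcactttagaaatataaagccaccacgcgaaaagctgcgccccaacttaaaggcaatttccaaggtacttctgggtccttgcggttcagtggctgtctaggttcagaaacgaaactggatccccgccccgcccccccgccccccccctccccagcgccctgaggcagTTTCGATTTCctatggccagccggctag
Both Ifitm3 matches lie just after the start, at positions 3 and 20, and TTCNNNGAA at position 14 overlaps the second of them. Bst2 holds 2 matches that share their middle GAAA, at positions -130 and -124, with TTCNNNGAA at -136 overlapping the first. The single matches of Stat2 and Ddx58 read on the other strand, at positions -222 and 3. Isg15, a member with almost no transcript in most libraries, has the densest site, 3 overlapping matches beginning at -78, and the sites of Ifit1, Ifitm2 and B2m are given beside it.
Isg15, chromosome 4: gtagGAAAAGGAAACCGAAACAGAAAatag
Ifit1, chromosome 19: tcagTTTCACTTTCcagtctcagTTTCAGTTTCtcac
Ifitm2, chromosome 7: acagGAAAAGGAAAttgc
B2m, chromosome 2: acatGAAACTGAAAatgg
A motif match is a description of the letters and not evidence of binding in these cells.

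Library totals lay between 47350441 and 56138844 counts. Values are CPM, the counts of a gene divided by the library total after TMM scaling and set to a common library size. Markers of the labelled cell type were expressed in every library, with a summed level of 10 pluripotency genes of 7995 to 10760 CPM in the mutant libraries and 5364 to 11160 CPM in the WT libraries. Replicate 1 of WT at day 0 and at day 1 differed from all other libraries. Their pluripotency markers summed to 5488 and 5364 CPM, against 7863 to 11160 CPM in the other 15 libraries. Their fibroblast and stromal sums, 2297 and 2848 CPM, overlapped the 987.9 to 2790 CPM of the others. Fn1, a gene of that list, alone averaged 1400 CPM over the 17 libraries, and single genes of the list went both ways. Tagln held 19648 and 30168 counts in the pair, against 74 and 110 in WT replicate 2 at days 0 and 1. Col1a1 held 3236 and 7281 counts against 113 and 118, and Col3a1 held 1098 and 594 against 0 and 0. Pdgfra and Thy1 were instead higher in WT replicate 2 at each day. The pair's mesoderm markers summed to 202.9 and 164.2 CPM, against 11.74 to 55.89 CPM in the other 15 libraries. Their trophoblast markers summed to 668.0 and 1393 CPM, against 74.54 to 414.9 CPM, and the smooth muscle gene Acta2 stood at 151 and 327 CPM. WT day 2 replicate 1 lay between, with Acta2 at 41.5 CPM and the highest trophoblast sum of the remaining libraries, and Acta2 was at most 1.95 CPM in the others. The WT replicate 2 libraries carried more primitive endoderm transcript, with Gata6 at 28.2, 8.52, 6.27 and 4.61 CPM at days 0, 1, 2 and 7, against at most 0.703 CPM in the mutant libraries. The 10 blood and immune markers summed to 31.19 to 59.11 CPM in the mutant libraries and 13.17 to 51.29 CPM in the WT libraries, most of it Cd68, at 26.3 to 53.6 CPM in the mutant and 10.1 to 45.2 CPM in WT. Of these 10, Cd68, Cd3e and Spi1 averaged at least 1 CPM over the 17 libraries, and 4 averaged under 0.1 CPM, Ptprc, Csf1r, Lyz2 and Tyrobp. In such bulk samples, fewer cells of a type and less RNA per cell cannot be told apart.

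The members covered a wide range of levels. Over the 17 libraries, 15 members averaged at least 10 CPM, 8 averaged 1 to 10 CPM and 8 averaged less. At least 1 CPM was found in every library for 17 members. Never reaching 1 CPM in any library were 6 members, Irf7, Ifit1, Ifit3, Usp18, Rsad2 and Rtp4. Per kilobase of exon, the highest means belonged to the Ifitm genes, membrane proteins that block virus entry, with 443.9 CPM per kb for Ifitm2, 185.1 for Ifitm1 and 102.7 for Ifitm3. Behind them came Trim25, the ubiquitin ligase that activates RIG-I, at 37.55 CPM per kb, B2m, the invariant chain of class I molecules, at 31.49, and Bst2 (tetherin), which holds budding virions at the surface, at 29.26. These per-length values cannot be read to that precision for the Ifitm, Ifit and H2 genes, whose near-identical copies can split reads in a way the sources used here do not state.

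**Figure D1:**
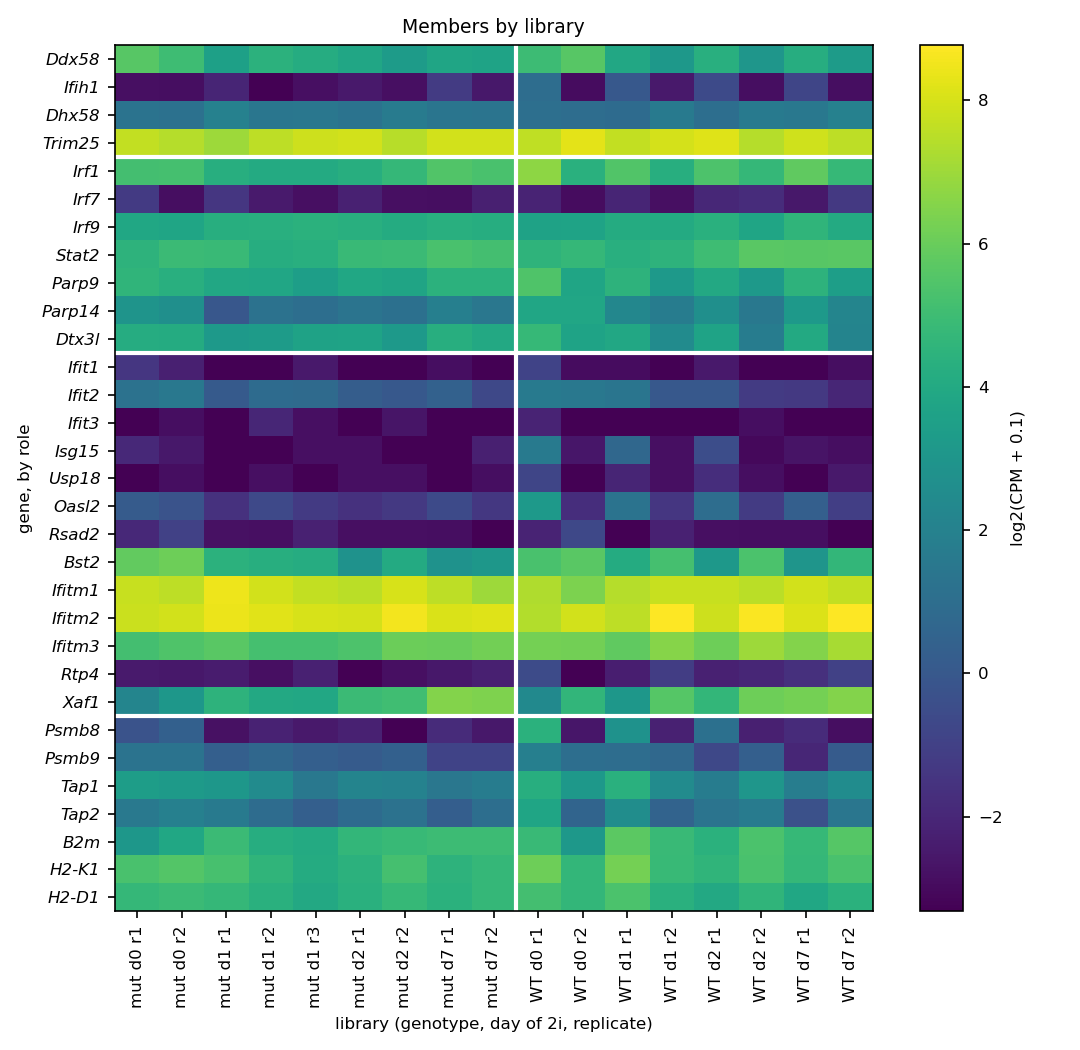
Level of each of the 31 members, as log2(CPM + 0.1), in the 9 mutant libraries (left of the white line) and the 8 WT libraries (right), with genes ordered by role (sensors, transcription, effectors, antigen presentation). Trim25 and the Ifitm genes are bright throughout, and Ifit1, Ifit3 and Usp18 are dark throughout.

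Several classical interferon markers among the members stayed low in every library. Other genes of the response were not low everywhere. Gbp2, not a member, held 4850 and 2164 counts in WT day 0 and day 1 replicate 1, against 14 and 10 counts in replicate 2. It held at most 226 counts in a mutant library. Oas1a, also not a member, held 4344 counts in WT day 7 replicate 2. Ifit1, whose product binds viral RNA caps, had 0.281 and 0.109 CPM at day 0, 0, 0 and 0.0777 CPM at day 1, 0 and 0 CPM at day 2 and 0.037 and 0 CPM at day 7 in the mutant libraries. In WT it had 0.436 and 0.0338 CPM at day 0, 0.0337 and 0 CPM at day 1, 0.0782 and 0 CPM at day 2 and 0 and 0.0375 CPM at day 7. Its close relative Ifit3 had 0 and 0.0365 CPM at day 0, 0, 0.144 and 0.0388 CPM at day 1, 0 and 0.0607 CPM at day 2 and 0 and 0 CPM at day 7 in the mutant libraries. Ifit3 in WT had 0.134 and 0 CPM at day 0, 0 and 0 CPM at day 1, 0 and 0.0373 CPM at day 2 and 0 and 0 CPM at day 7, so that neither gene reached 1 CPM anywhere. Irf7, the factor that amplifies interferon alpha transcription, had 0.321 and 0.0365 CPM at day 0, 0.277, 0.0825 and 0.0388 CPM at day 1, 0.117 and 0.0404 CPM at day 2 and 0.037 and 0.109 CPM at day 7 in the mutant libraries. The WT libraries held Irf7 at 0.134 and 0.0338 CPM at day 0, 0.135 and 0.0392 CPM at day 1, 0.156 and 0.187 CPM at day 2 and 0.074 and 0.3 CPM at day 7, and the genotypes overlapped. The remaining low effectors were Usp18, which shuts off interferon receptor signalling, at up to 0.0413 CPM in the mutant and 0.469 CPM in WT, Rsad2 (viperin) at up to 0.401 and 0.507 CPM, and Rtp4 at up to 0.117 and 0.57 CPM. The interferon genes themselves had almost no counts. The 11 interferon ligand genes listed held 16 counts in all over the 17 libraries, and 7 of them, Ifnb1 among them, held 0. For Ifnb1 that allows up to 0.00334 CPM by 3 counts, or 0.00667 CPM if each read pair gave 2 counts, for counting error only.

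Averaged over the 4 days, transcripts of 2 members fell in the mutant and none rose. They were Ifitm3, of the membrane family above, and Parp14, an ADP-ribosyltransferase that modulates STAT signalling. The call was a Benjamini-Hochberg adjusted p under 0.05 over 15365 genes in edgeR's quasi-likelihood test, fitted to all libraries. That fit took WT libraries of different days as independent, though same-numbered ones deviated together. The errors and p-values of the average may therefore be too small. Of the 30 members tested, 6.67% were called, against 12.8% of all genes in this contrast, a share no higher than that of genes in general. By sign, 22 of the 30 log2 fold changes were below 0, beside 8291 of all 15365 genes. The median over the members was -0.47, beside a median of -0.03 over all genes.

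Ifitm3 (chr7:141009586-141010770, minus strand) stood in the mutant at 35.2 and 43 CPM at day 0, 50.7, 37 and 36.7 CPM at day 1, 42.4 and 67.2 CPM at day 2 and 64.7 and 73.6 CPM at day 7. In WT it stood at 75.7 and 72.4 CPM at day 0, 56.2 and 95.1 CPM at day 1, 68 and 129 CPM at day 2 and 93.1 and 144 CPM at day 7. At each of the 4 days, every mutant library was below both WT libraries. The average log2 fold change of Ifitm3 was -0.85 ± 0.17 (SE), 1.81-fold lower in the mutant, with an adjusted p of 0.00725. Day by day the log2 fold change was -0.92, -0.87, -0.85 and -0.78, with adjusted p of 0.272, 0.22, 0.761 and 0.511 in edgeR's test, so that no single day passed. The 2 neighbours of Ifitm3 in the same cluster did not pass, with average log2 fold changes of 0.23 ± 0.16 for Ifitm1 and -0.07 ± 0.19 for Ifitm2 (SE), and adjusted p of 0.397 and 0.869.
Ifitm1 had 216 and 192 CPM at day 0, 356, 244 and 204 CPM at day 1, 184 and 260.4 CPM at day 2 and 186 and 129 CPM at day 7 in the mutant libraries. In WT, Ifitm1 had 158 and 82.1 CPM at day 0, 171 and 213 CPM at day 1, 212 and 184 CPM at day 2 and 247 and 203 CPM at day 7. The highest single library was a mutant one at day 1 and the lowest WT day 0 replicate 2. Ifitm2 had 219.5 and 243 CPM at day 0, 346, 297 and 264 CPM at day 1, 251 and 374 CPM at day 2 and 267 and 291 CPM at day 7 in the mutant libraries. WT libraries held Ifitm2 at 164 and 247 CPM at day 0, 187 and 436 CPM at day 1, 229 and 417 CPM at day 2 and 284 and 425 CPM at day 7, and at each day the second WT replicate was above the first.

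Parp14 (chr16:35832874-35871544, minus strand) was at 7.47 and 6.35 CPM at day 0, 0.878, 2.27 and 1.98 CPM at day 1, 2.4 and 2.1 CPM at day 2 and 3.66 and 2.65 CPM at day 7 in the mutant. In WT it was at 14.1 and 14.4 CPM at day 0, 4.78 and 3.26 CPM at day 1, 6.34 and 2.72 CPM at day 2 and 8.95 and 4.42 CPM at day 7. As with Ifitm3, no mutant library reached a WT library of its day. The average log2 fold change of Parp14 was -1.09 ± 0.24 (SE), 2.13-fold lower in the mutant, with an adjusted p of 0.0125. On single days it was -1.04, -1.23, -1.01 and -1.08, with adjusted p of 0.395, 0.227, 0.865 and 0.519 in edgeR's test. Its neighbours in function on the same chromosome region, Parp9 and the ubiquitin ligase Dtx3l, which act as a complex, gave average log2 fold changes of -0.03 ± 0.25 and 0.25 ± 0.33 (SE), neither called. Parp9 ranged over 10.7 to 23.8 CPM in the mutant and 9.26 to 42.9 CPM in WT, and Dtx3l over 8.78 to 19.1 CPM in the mutant and 3.32 to 27.1 CPM in WT. Parp9 and Dtx3l overlap by 682 bases on opposite strands, so reads there may have been shared between them.
Markers of other lineages moved with the same contrast, where 12.8% of all genes were called. On average 10 of 14 primitive endoderm markers, 7 of 18 fibroblast and stromal markers, 5 of 9 trophoblast markers and 2 of 9 mesoderm markers tested were called lower in the mutant. Their part in the 2 members' differences was not tested. Without the WT pair that stood apart, the average log2 fold change was -0.93 for Ifitm3 and -1.02 for Parp14, with adjusted p of 0.00782 and 0.0304. Replicate numbers were taken to pair the WT libraries across days, from their shared deviations and not from the labels. With a term for the WT replicate, edgeR called 4 members on average, Ifitm3, Parp14 and Oasl2 lower and Dtx3l higher. In that fit 22% of all genes were called. The term takes lasting differences between the WT replicates out of the error, while the WT means still rest on those replicates. Calls between genotypes with this term may therefore come too easily.

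**Figure D2:**
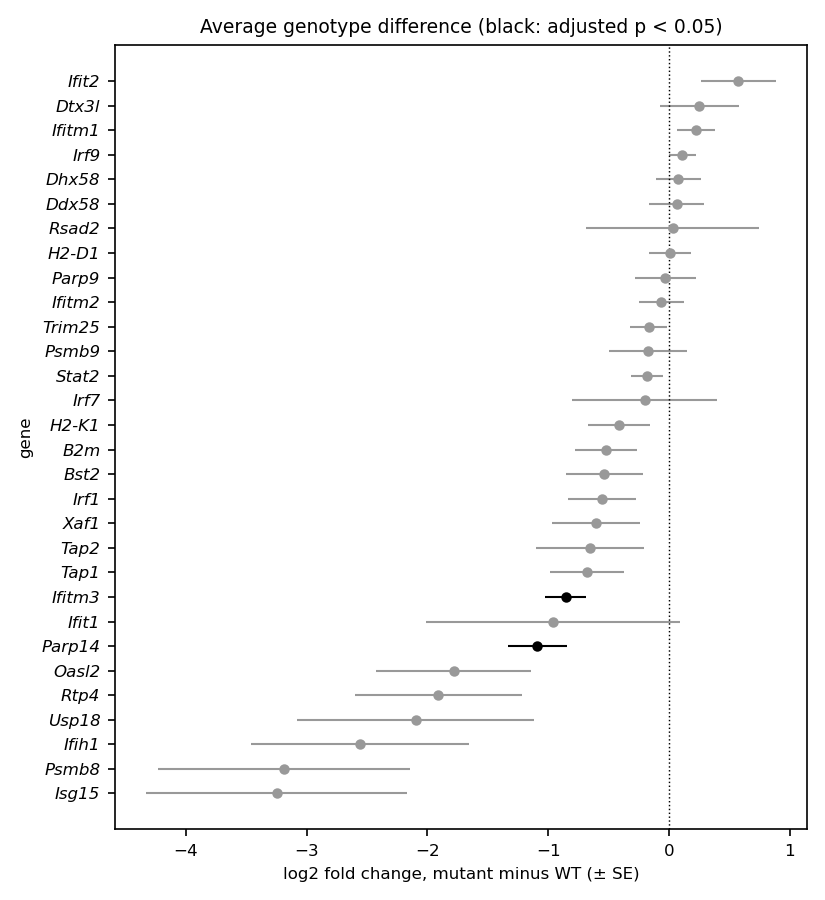
Average log2 fold change over 4 days, mutant minus WT, with its standard error, for the 30 members tested, on the horizontal axis, with black for adjusted p under 0.05. Parp14 and Ifitm3 are the black points, at -1.09 and -0.85, and the members with larger negative values have wide errors.

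On single days, 0 of the 30 members passed between mutant and WT, in edgeR and in DESeq2 alike. DESeq2 called 4.48%, 4.99%, 0.872% and 2.04% of all genes at days 0, 1, 2 and 7. With the term for the WT replicate, edgeR called Psmb8 lower at day 1, where 4.52% of all genes were called, and no member at the other days. For Psmb8 the WT libraries of day 1 held 6.97 and 0.118 CPM, and the limit of that term given above applies. Without the WT replicate term, all genes were called at 0.28% at day 0, 0.417% at day 1, 0.0716% at day 2 and 0.0976% at day 7, so few calls could fall on any 30 genes. At an unadjusted p under 0.05, 3, 4, 1 and 3 of the 30 members were below the threshold at days 0, 1, 2 and 7, against 13.2%, 14.4%, 6.04% and 9.53% of all genes, a share no higher at days 0, 1 and 2 and close to it at day 7. Median log2 fold changes of the members were -0.33, -0.49, -0.46 and -0.30 in that order, beside -0.05, -0.05, -0.01 and -0.03 over all genes. Groups that did not overlap, with the mutant lower, were seen for 2, 5, 7 and 7 of the 31 members, against 23.4%, 13.2%, 15.5% and 23.8% of all genes tested. With the mutant higher they were seen for 4, 1, 0 and 2 members, against 23.6%, 12.7%, 14.6% and 21.1%. At day 0, 22 of the 30 log2 fold changes were below 0 and 8 above, beside 8299 below and 7053 above over all genes.

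The average differences of largest size belonged to members that did not pass. For Psmb8, Isg15, Oasl2 and Ifih1, WT replicate 1 was above WT replicate 2 at every day. Psmb8 (chr17:34197721-34201454, plus strand), a catalytic subunit of the immunoproteasome, had 0.763 and 1.2 CPM at day 0, 0.0462, 0.124 and 0.0777 CPM at day 1, 0.117 and 0 CPM at day 2 and 0.185 and 0.0727 CPM at day 7 in the mutant libraries. WT libraries had 20.8 and 0.0677 CPM at day 0, 6.97 and 0.118 CPM at day 1, 2.11 and 0.112 CPM at day 2 and 0.185 and 0.0375 CPM at day 7. Replicate 1 was the higher WT library at every day, by 306.7-fold at day 0, and replicate 2 lay within the range of the mutant libraries at days 1 and 2. Isg15, the ubiquitin-like modifier, had 0.161 and 0.073 CPM at day 0, 0, 0 and 0.0388 CPM at day 1, 0.039 and 0 CPM at day 2 and 0 and 0.109 CPM at day 7 in the mutant. Its WT values were 3.02 and 0.0677 CPM at day 0, 1.55 and 0.0392 CPM at day 1, 0.626 and 0.0187 CPM at day 2 and 0.0555 and 0.0375 CPM at day 7, and the single libraries with more than 1 CPM were replicate 1 at days 0 and 1.
Oasl2, an effector related to the oligoadenylate synthetases, ranged over 0.231 to 1.00 CPM in the mutant libraries, against 9.11, 2.36, 1.88 and 1.15 CPM in WT replicate 1 and 0.203, 0.275, 0.336 and 0.375 CPM in WT replicate 2 at days 0, 1, 2 and 7. Ifih1, which encodes MDA5, had 0.0401 and 0.0365 CPM at day 0, 0.139, 0 and 0.0388 CPM at day 1, 0.0781 and 0.0404 CPM at day 2 and 0.333 and 0.0727 CPM at day 7 in the mutant libraries. WT libraries held it at 1.88 and 0.0338 CPM at day 0, 0.909 and 0.0785 CPM at day 1, 0.548 and 0.0373 CPM at day 2 and 0.481 and 0.0375 CPM at day 7, again with replicate 1 above replicate 2 at each day. Adjusted p-values of the average difference were 0.062 for Psmb8, 0.0662 for Isg15, 0.09 for Oasl2, 0.083 for Ifih1 and 0.09 for Rtp4 in edgeR, and DESeq2 called those 5 and the 2 above, with 19.7% of all genes. Rtp4 in WT had 0.57 and 0 CPM at day 0, 0.101 and 0.353 CPM at day 1, 0.117 and 0.149 CPM at day 2 and 0.222 and 0.412 CPM at day 7, with replicate 2 the higher from day 1 on. Without WT day 0 replicate 2, edgeR called 8 members lower in place of 2, and without WT day 1 replicate 2 it called 4, with 12.1% and 13% of all genes called in those fits.

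For the class I genes Tap1, H2-K1, H2-D1 and B2m, WT replicate 1 was the higher library at days 0 and 1 and the lower at days 2 and 7. Tap1, a subunit of the peptide transporter, had 10.6 and 9.38 CPM at day 0, 8.41, 5.65 and 2.8 CPM at day 1, 4.29 and 4 CPM at day 2 and 2.7 and 3.27 CPM at day 7 in the mutant. WT libraries had 19 and 8.53 CPM at day 0, 20.1 and 5.65 CPM at day 1, 3.32 and 8.02 CPM at day 2 and 3.37 and 5.73 CPM at day 7. H2-K1, a classical class I heavy chain, had 39.1 and 45.7 CPM at day 0, 38.4, 24.2 and 17.4 CPM at day 1, 21.7 and 36.5 CPM at day 2 and 22.3 and 26.7 CPM at day 7 in the mutant. H2-K1 in WT was at 69 and 25.4 CPM at day 0, 75.2 and 28.6 CPM at day 1, 24.3 and 38.6 CPM at day 2 and 26.4 and 39.1 CPM at day 7. Irf1, which drives class I and immunoproteasome genes, had 36.1 and 36.7 CPM at day 0, 18.8, 16.6 and 16.5 CPM at day 1, 19.2 and 26.8 CPM at day 2 and 44.5 and 39.8 CPM at day 7 in the mutant libraries. WT held Irf1 at 104 and 20.4 CPM at day 0, 44.4 and 19.3 CPM at day 1, 42 and 26.5 CPM at day 2 and 56.5 and 27.5 CPM at day 7, with replicate 1 above replicate 2 at each day. Average log2 fold changes were -0.68 ± 0.31 for Tap1, -0.41 ± 0.26 for H2-K1 and -0.56 ± 0.28 for Irf1 (SE), with adjusted p of 0.171, 0.335 and 0.228.
H2-D1, the other classical heavy chain, had 26.3 and 30.6 CPM at day 0, 26.8, 20.3 and 15.8 CPM at day 1, 20.6 and 27.1 CPM at day 2 and 20.9 and 26.3 CPM at day 7 in the mutant. WT had 35 and 25.7 CPM at day 0, 40.7 and 20.3 CPM at day 1, 15.7 and 23.6 CPM at day 2 and 14.7 and 21.3 CPM at day 7, and its average log2 fold change was 0.01 ± 0.18 (SE). B2m had 8.47 and 14.5 CPM at day 0, 29.8, 18.2 and 16.5 CPM at day 1, 25.3 and 28.5 CPM at day 2 and 31.4 and 31.6 CPM at day 7 in the mutant libraries. In WT it had 29.1 and 8.66 CPM at day 0, 52.1 and 29.5 CPM at day 1, 21.1 and 40.2 CPM at day 2 and 27.4 and 48 CPM at day 7, and the lowest value of each genotype was at day 0. B2m lies inside the span of Patl2 on the other strand, and the strand setting of the counting is not given in the sources used here.
Over the members of at least 1 CPM, WT replicate 1 was at least 2-fold above replicate 2 in 11 of 25 at day 0, 11 of 24 at day 1, 5 of 22 at day 2 and 5 of 21 at day 7. Replicate 2 was at least 2-fold above replicate 1 in 1, 3, 4 and 3 of them. Among mutant libraries the highest was at least 2-fold above the lowest in 0 of 23, 4 of 21, 1 of 21 and 1 of 20. WT day 0 replicate 1 was the highest of all 17 libraries for 13 of the 31 members, and this is the first of the 2 libraries with the mesoderm and trophoblast transcripts. Whether those cells carry the member transcripts was not tested. The same counts were not made over all genes, so they do not show a trait of the members. Between WT days 0 and 1, replicate deviations correlated at r = 0.744 over all genes and 0.801 over the members.

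**Figure D3:**
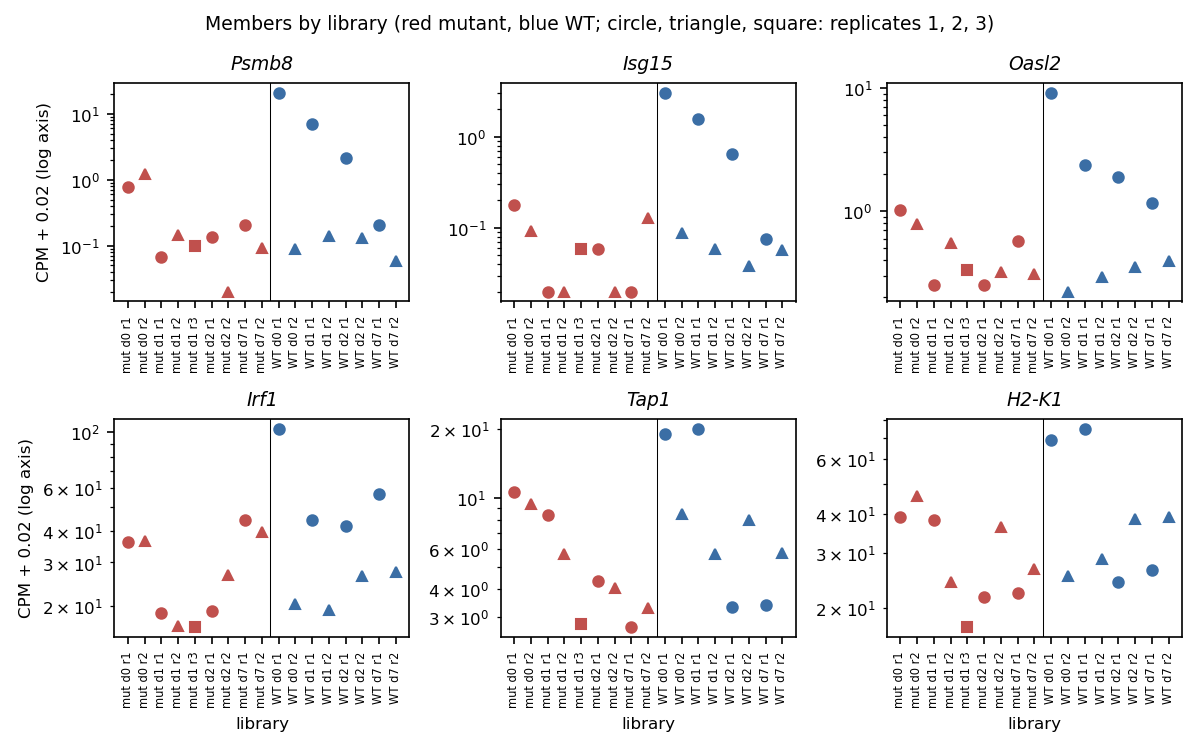
CPM + 0.02 on a log axis for Psmb8, Isg15, Oasl2, Irf1, Tap1 and H2-K1 in each of the 17 libraries, mutant in red on the left and WT in blue on the right, with circles, triangles and squares for replicates 1, 2 and 3. WT replicate 1 at day 0 reaches 20.8 CPM for Psmb8 and 9.11 CPM for Oasl2, where replicate 2 holds 0.0677 and 0.203 CPM.

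Over 7 days of 2i, 3 members fell and 1 rose in the mutant. Ddx58, Bst2 and Psmb9 fell and Xaf1, an interferon-inducible gene that promotes apoptosis by binding XIAP, rose. That is 13.3% of 30 members, against 14.2% of all genes tested. At day 1 only Parp14 was called, lower, or 3.33% of the members against 1.41% of all genes, and at day 2 edgeR called 0 of 30 where 2.92% of all genes were called, 6 members being under an unadjusted p of 0.05 (15% of all genes) and 4 being called by DESeq2 (7.88% of all genes). In the fit with the WT replicate term, edgeR called 4, 5 and 7 members in the mutant at days 1, 2 and 7, with 5.34%, 8.66% and 25.1% of all genes. Median log2 fold changes of the members against day 0 were -0.68, -0.67 and -0.32 at days 1, 2 and 7, beside 0.01, 0.02 and 0 over all genes.
WT showed 3 calls after 7 days, with Ifit2 and Psmb9 lower and Stat2 higher, or 10% of 30 members against 12.7% of all genes. At days 1 and 2 WT had 0 of 30 called in edgeR, where 0.202% and 2.16% of all genes were called. Unadjusted p-values were under 0.05 for 2 and 9 members, against 8.42% and 17.1% of all genes, and DESeq2 called 2 and 3, against 2.08% and 8% of all genes. Medians over the members were -0.72, -1.04 and -0.86 at days 1, 2 and 7, beside 0.01, -0.01 and -0.01 over all genes.
With the term for the WT replicate, edgeR called 2 members lower at day 1 (1.54% of all genes called), 5 lower and 1 higher at day 2 (9.69%) and 8 lower and 5 higher at day 7 (26.1%). The members lower at day 1 were Ddx58 and Parp14. Parp9, Dtx3l and Ifit2 joined them at day 2, with Xaf1 higher. At day 7 the lower ones were Ddx58, Parp14, Dtx3l, Ifit2, Isg15, Bst2, Psmb8 and Psmb9, and the higher ones Irf9, Stat2, Ifitm1, Ifitm2 and Xaf1. Psmb8 and Isg15 were high at day 0 in WT replicate 1 alone, at 20.8 and 3.02 CPM. In WT replicate 2 both held 0.0677 CPM at day 0 and 0.0375 CPM at day 7.

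**Figure D4:**
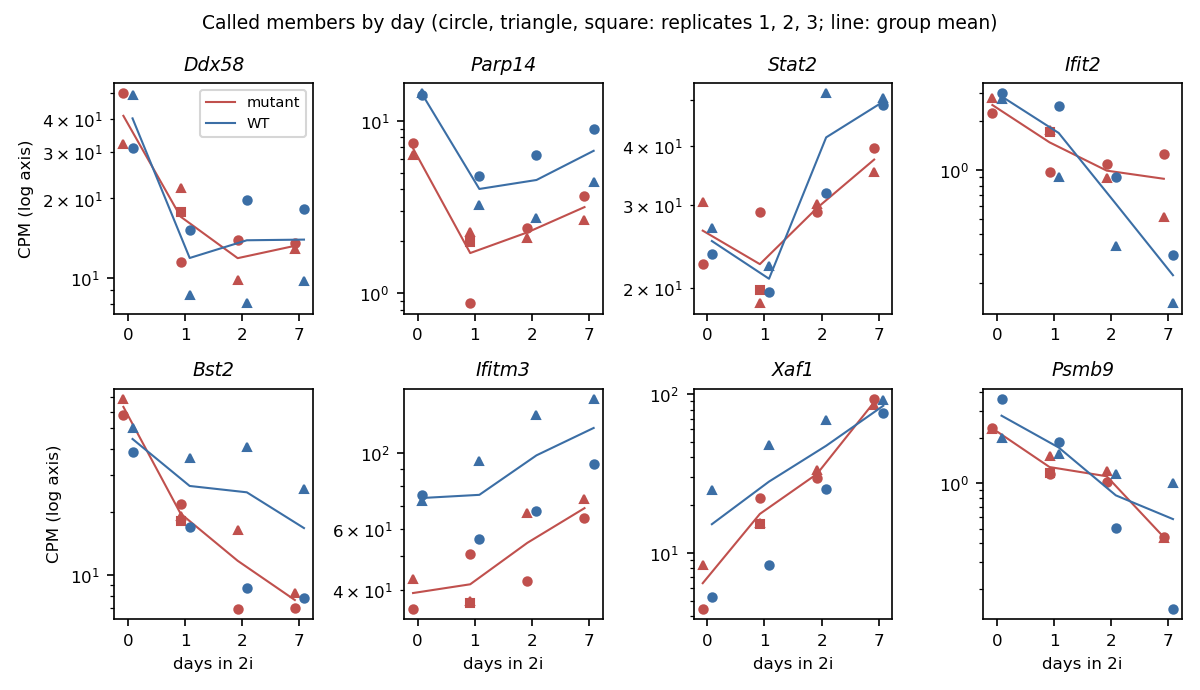
CPM on a log axis by days in 2i for the 8 members called in at least 1 comparison, mutant in red set left of WT in blue, with 1 symbol per library and lines through the group means. Xaf1 climbs in both genotypes to between 76.7 and 93.2 CPM at day 7, and Ifitm3 and Parp14 lie lower in the mutant at each day.

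Among the sensors, Ddx58 (chr4:40203773-40239828, minus strand) had 49.8 and 32.2 CPM at day 0, 11.5, 22 and 17.7 CPM at day 1, 13.9 and 9.87 CPM at day 2 and 13.6 and 12.9 CPM at day 7 in the mutant. WT libraries had 31 and 49.2 CPM at day 0, 15.2 and 8.67 CPM at day 1, 19.8 and 8.06 CPM at day 2 and 18.2 and 9.74 CPM at day 7. All later libraries of either genotype lay below the day 0 libraries of that genotype. At day 7 against day 0 its log2 fold change was -1.63 ± 0.48 in the mutant and -1.52 ± 0.48 in WT (SE), with adjusted p of 0.0383 and 0.0531 in edgeR's test. The mutant call of Ddx58 was lost without either mutant day 0 library, either mutant day 7 library or mutant day 1 replicate 3, at adjusted p of up to 0.287. With the replicate term the WT value was -1.67, with an adjusted p of 0.00957. Dhx58, which encodes the regulator LGP2, had 2.33 and 2.19 CPM at day 0, 3.83, 2.6 and 2.72 CPM at day 1, 2.34 and 3.15 CPM at day 2 and 2.48 and 2.43 CPM at day 7 in the mutant. In WT it had 2.01 and 1.93 CPM at day 0, 1.75 and 2.94 CPM at day 1, 1.94 and 2.95 CPM at day 2 and 2.74 and 3.93 CPM at day 7, and it was not called in any comparison. Trim25 was between 127 and 246 CPM in the mutant and between 169.6 and 308 CPM in WT, with no call.

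Of the transcription group, Stat2 (chr10:128270559-128292849, plus strand), a subunit of the complex that interferon activates, had 22.5 and 30.4 CPM at day 0, 29, 18.6 and 19.8 CPM at day 1, 28.9 and 30.2 CPM at day 2 and 39.6 and 35.2 CPM at day 7 in the mutant. Its WT libraries held 23.5 and 26.7 CPM at day 0, 19.6 and 22.2 CPM at day 1, 31.7 and 51.6 CPM at day 2 and 48.8 and 50.4 CPM at day 7. Both day 7 libraries were above both day 0 libraries in each genotype. The day 7 log2 fold change of Stat2 was 0.50 ± 0.27 in the mutant and 0.98 ± 0.27 in WT (SE), with adjusted p of 0.24 and 0.0318. Without the WT pair that stood apart, the WT adjusted p of Stat2 was 0.152, and the call was also lost without any 1 of the 4 WT libraries of days 0 and 7. Irf9, the DNA-binding subunit of the same complex, had 14.4 and 13.9 CPM at day 0, 18.8, 19.4 and 20.9 CPM at day 1, 19.8 and 17.4 CPM at day 2 and 19.9 and 18.3 CPM at day 7 in the mutant. WT had 12.3 and 13 CPM at day 0, 17.4 and 16.5 CPM at day 1, 20.4 and 13.6 CPM at day 2 and 23.7 and 16.6 CPM at day 7, and the call in WT at day 7 came with the replicate term alone, at a log2 fold change of 0.65 ± 0.20 (SE) and an adjusted p of 0.0302. Parp14 fell by 2.01 ± 0.45 (SE) on the log2 scale in the mutant at day 1, with an adjusted p of 0.0478. The call for Parp14 was lost without any of 11 libraries, each mutant library and both WT day 0 libraries among them, with adjusted p of 0.0503 to 0.345. Its WT value at day 1 was -1.82 ± 0.50 (SE), at an adjusted p of 0.206, or 0.0341 with the replicate term.

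The effectors moved in both directions. Bst2 (chr8:71534255-71537456, minus strand) had 57.5 and 68.8 CPM at day 0, 21.7, 19.2 and 18.1 CPM at day 1, 6.95 and 16.5 CPM at day 2 and 6.98 and 8.28 CPM at day 7 in the mutant. In WT it had 38.7 and 50.2 CPM at day 0, 17 and 36.1 CPM at day 1, 8.68 and 40.9 CPM at day 2 and 7.77 and 25.8 CPM at day 7, where replicate 1 alone came down to the mutant's day 7 level. The day 7 log2 fold change of Bst2 was -3.05 ± 0.70 in the mutant and -1.41 ± 0.66 in WT (SE), with adjusted p of 0.0121 and 0.177, and the WT value with the replicate term was -1.70 at 0.00788. The mutant call of Bst2 was lost without mutant day 0 replicate 2 or either mutant day 7 library, at adjusted p of 0.0508 to 0.113. Ifit2 (chr19:34550694-34576419, plus strand), another Ifit family member, had 2.25 and 2.81 CPM at day 0, 0.97, 1.77 and 1.71 CPM at day 1, 1.09 and 0.89 CPM at day 2 and 1.26 and 0.509 CPM at day 7 in the mutant. WT had 2.98 and 2.74 CPM at day 0, 2.49 and 0.903 CPM at day 1, 0.9 and 0.336 CPM at day 2 and 0.296 and 0.15 CPM at day 7, and both day 7 libraries were below both day 0 libraries in each genotype. Its day 7 log2 fold change was -1.52 ± 0.63 in the mutant and -3.67 ± 0.70 in WT (SE), with adjusted p of 0.131 and 0.00618, and the WT call of Ifit2 was lost without WT day 7 replicate 2, at 0.0545.
Xaf1 (chr11:72301629-72313733, plus strand) had 4.46 and 8.43 CPM at day 0, 22.1, 15.5 and 15.2 CPM at day 1, 29.8 and 33.1 CPM at day 2 and 93.2 and 85.2 CPM at day 7 in the mutant. WT libraries ran at 5.28 and 25.1 CPM at day 0, 8.38 and 47.9 CPM at day 1, 25.4 and 69.2 CPM at day 2 and 76.7 and 92.6 CPM at day 7. Day 7 libraries of both genotypes overlapped at 76.7 to 93.2 CPM, and every day 7 library was above every day 0 library of its genotype. The day 7 log2 fold change of Xaf1 was 3.79 ± 0.82 in the mutant and 2.48 ± 0.78 in WT (SE), 13.8-fold and 5.58-fold, with adjusted p of 0.00877 and 0.0525, or 0.000516 in WT with the replicate term. Without mutant day 0 replicate 1 the mutant call of Xaf1 was lost, at an adjusted p of 0.104. Ifitm3 at day 7 had log2 fold changes of 0.82 ± 0.35 in the mutant and 0.68 ± 0.35 in WT (SE), with adjusted p of 0.137 and 0.211.

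In antigen processing, Psmb9 (chr17:34181987-34187764, minus strand), a further immunoproteasome subunit, had 2.33 and 2.3 CPM at day 0, 1.15, 1.53 and 1.17 CPM at day 1, 1.02 and 1.21 CPM at day 2 and 0.443 and 0.436 CPM at day 7 in the mutant. For WT the values were 3.62 and 2 CPM at day 0, 1.89 and 1.57 CPM at day 1, 0.508 and 1.16 CPM at day 2 and 0.148 and 1.01 CPM at day 7. The day 7 log2 fold change was -2.39 ± 0.69 in the mutant and -2.27 ± 0.69 in WT (SE), with adjusted p of 0.0368 and 0.0463. The WT call for Psmb9 was lost without the WT pair, at an adjusted p of 0.195, and without WT day 0 replicate 1, WT day 7 replicate 1 or any 1 of the 9 mutant libraries. The mutant call of Psmb9 was lost without any mutant library other than day 1 replicate 1, or 8 of 9, at up to 0.185. Psmb9 overlaps Tap1 by 212 bases on the other strand. The remaining member, Tap2, ranged over 1.11 to 3.69 CPM in the mutant and 0.703 to 13.7 CPM in WT, with no call.
Calls after 7 days rest on few libraries. In the mutant they fell to 1 of 4 without day 0 replicate 1, day 0 replicate 2, day 7 replicate 1 or day 7 replicate 2, where 4.32%, 6.98%, 5.18% and 5.62% of all genes were called. They fell to 2 without mutant day 1 replicate 3, with 12.9% of all genes called. In WT they fell to 1 of 3 without day 7 replicate 1 or 2, with 4.71% and 6.07% of all genes called. They were 5 or 6 without WT day 0 replicate 2 (9.55% of all genes), either day 1 library (15.1% both times) or day 2 replicate 1 or 2 (13.6% and 13.7%).

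The change with 2i did not differ detectably between genotypes. For the difference of the responses (mutant minus WT) at days 1, 2 and 7, edgeR called 0 of 30 members and 0% of all genes at each day, and DESeq2 called 0 members and 0%, 0% and 0.436% of all genes. At an unadjusted p under 0.05 there were 0, 0 and 2 members, against 0.768%, 2.38% and 7.67% of all genes, so that the day 7 share was not above that of genes in general. The 2 were Ifit2, with a difference of 2.15 ± 0.91 on the log2 scale at day 7 (SE, adjusted p = 0.638), and Ifitm1, with -1.28 ± 0.46 (SE, adjusted p = 0.605). Bst2, Stat2 and Xaf1, called in 1 genotype and not in the other, are therefore not shown to respond differently.

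Several receptor and signalling genes of the pathway were expressed in all libraries. Ifnar1 was at 38.9 to 58.2 CPM in the mutant and 35.0 to 66.9 CPM in WT, Ifnar2 at 9.83 to 18.1 and 9.28 to 20.5 CPM, and Jak1 at 39.0 to 70.9 and 40.6 to 58.5 CPM. Irf3, the factor that MAVS signalling activates, was at 24.1 to 44.3 CPM in the mutant and 25.2 to 35.9 CPM in WT, and the feedback inhibitors Socs1 and Socs3 were at 2.47 to 4.70 and 90.9 to 154 CPM in the mutant, against 2.51 to 4.08 and 64.4 to 158 CPM in WT. None of these was called in any comparison, and the feedback inhibitors had 0 of 6 called throughout. Of 136 other pathway genes listed, the 11 ligands included, 130 were in the table and 106 were tested.
In the average over the 4 days, 12.8% of all genes were called, and the list counts were not tested against that share. Among 11 receptor and kinase genes tested, 1 rose in the mutant and 1 fell. They were the kinase Tyk2, with a log2 fold change of 0.53 ± 0.11 (SE, adjusted p = 0.00776), and the interferon gamma receptor chain Ifngr2, with -0.96 ± 0.27 (SE, adjusted p = 0.0333). In the sensing list 2 of 17 fell, Ikbke at -1.14 (adjusted p = 0.0068) and Zbp1 at -1.45 (adjusted p = 0.0416). Among other interferon-stimulated genes 6 of 42 fell and 1 rose, led by Slfn5 at -2.66, Oas1a at -1.89, Tor3a at -0.81 and Oas1g at -1.80, and the median over the list was -0.82 beside -0.03 over all genes. Oas1a and Oas1g are near-identical copies whose reads may be shared. Among other antigen presentation genes 2 of 27 fell, Tapbp (tapasin, which loads peptide onto class I) at -1.10 and H2-Eb1 at -1.44, and Psmb10, the third immunoproteasome subunit, rose by 0.59. The average calls of Tyk2, Ikbke, Slfn5, Oas1a, Tor3a, Oas1g and Tapbp held without any 1 library, while each of Ifngr2, Zbp1, H2-Eb1 and Psmb10 lost its call without most single mutant libraries and some WT ones.
Tapbp was at 20.1 to 42.8 CPM in the mutant libraries and 25.3 to 96.4 CPM in the WT libraries. After 7 days of 2i, Psmb10 fell with Psmb9 in both genotypes, at log2 fold changes of -1.67 ± 0.33 in the mutant and -1.63 ± 0.33 in WT (SE, adjusted p of 0.0049 and 0.00767). The mutant held Psmb10 at 18.4 and 20.5 CPM at day 7, against 63.7 and 60.6 CPM at day 0, and WT at 12.6 and 15.9 CPM at day 7, against 53.7 and 34.2 CPM at day 0. None of the 3 counterparts in the standard proteasome (Psmb5, Psmb6 and Psmb7) was called in any comparison. Nlrc5, the transactivator of class I genes, was at 0 and 0.182 CPM at day 7, against 1.77 and 2.37 CPM at day 0, in the mutant, where it was called lower (adjusted p = 0.0453), a call lost without any mutant library but day 7 replicate 2. In WT, Nlrc5 was at 0 and 0.524 CPM at day 7, against 1.59 and 0.66 CPM at day 0, and was not called. Mavs rose by 1.15 in the mutant and 0.96 in WT on the log2 scale (adjusted p of 0.0156 and 0.039), to 62.6 and 69.1 CPM in the mutant and 60.8 and 57.3 CPM in WT. Sp100, a nuclear body protein, was at 2.88 and 2.62 CPM in the mutant at day 7, where it was called higher, and had 0 counts in both mutant libraries of day 0. Tor3a, an interferon-responsive ATPase of the endoplasmic reticulum, fell at every later day in both genotypes (at WT day 1 a call lost without most single libraries), by 2.60 in the mutant and 1.87 in WT on the log2 scale at day 7 (adjusted p of 0.000525 and 0.00459).
At day 7 against day 0, 14.2% of all genes were called in the mutant and 12.7% in WT. The list counts that follow were not tested against those shares. In the mutant 2 of 11 receptor and kinase genes were called, both higher. These were Ifnlr1 at a log2 fold change of 1.88 and Il10rb at 2.05. Of 17 sensing genes 3 were called, all higher (Ikbke at 2.20, Mavs, and Tmem173, which encodes STING, at 3.18). Of 42 other interferon-stimulated genes 4 were higher and 5 lower, with Oas1a at 3.93 and the RNA helicase Mov10 at -1.84 beside Sp100 and Tor3a. Of 27 other antigen presentation genes 1 was higher, the class II chaperone gene H2-DMb1 at 3.14, and 3 were lower, H2-Q6 at -2.94, Psmb10 and Nlrc5. In WT at day 7, the sensing list had 1 higher (Mavs) and 1 lower (Tlr3, at 0.037 and 0.0375 CPM at day 7, against 1.37 and 0.44 CPM at day 0). Its other interferon-stimulated genes had 2 higher and 3 lower, with Oas1a at 2.57 and the nucleotide kinase Cmpk2 at -2.68, and its other antigen presentation genes had 0 higher and 3 lower, with H2-M3 at -2.48 and H2-Q6 at -2.95. Of these genes, Mov10 and Oas1a in the mutant kept their calls without any 1 library, and every other one named at day 7 apart from Tor3a lost its call without at least 1 library of its own genotype at day 0 or day 7.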

How the data were processed

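RNA-seq of total RNA from E14 cells gave 17 libraries, grouped by genotype and day from the sample titles. The authors deposited raw read counts, 1 table for all libraries. STAR, deepTools and the build mm10 are named in the submitters' processing notes. Versions, the counting tool, its annotation, its strand setting and its treatment of multi-mapping reads are not given in the sources used here. Of the counts from 1 to under 20, 88.6 to 92% were even in each library, as when both reads of a pair are counted, so a count is not an independent molecule. Of 20621 genes, 2692 had 0 counts throughout. No sample column was left unused.

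Counts were tested with edgeR 4.0.16 (R 4.3.3): TMM factors, filterByExpr on the 8 groups (15365 genes kept), 1 quasi-likelihood fit with a coefficient per group (9 residual degrees of freedom, prior 3.96, common biological coefficient of variation 0.333) and 14 two-sided contrasts. A call is a Benjamini-Hochberg adjusted p under 0.05. Standard errors were taken from the fold change and its F statistic, and exon lengths and positions from GENCODE M21 on GRCm38, also called mm10 (20110 symbols). The procedure was tested on simulated data. Figures were drawn with matplotlib 3.10.9.

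Members and lists were chosen with earlier results of these data known. Each member is accounted for. Values per library are given for members called in at least 1 contrast and for a set of named members, and from other lists up to 4 called genes per contrast by smallest p, with a fixed set given whether called or not. Of the other pathway genes listed, 6 were not analysed here.

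Same-numbered WT libraries deviated together from their group means in all 6 pairs of days (r = 0.236 to 0.744 across genes), so the replicate numbers were taken to pair the WT libraries. Among mutant libraries 1 of 6 pairs was over 0.1 (r = -0.342 to 0.174). Alternatives were 2 other normalisations, no filter (17929 genes), a filter of 1 CPM in 4 or more libraries, DESeq2 1.42.0, only the compared groups, replicate terms, offsets for gene span, leaving out each library or the WT pair that stood apart, and, chosen after seeing the data, halved counts.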

Additional observations from a re-analysis of the deposited data

How the results depend on the processing

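Counts of members called moved as follows, each with the share of all genes called in the same fit in parentheses. With gene span offsets, mutant minus WT gave 1 at day 0 (0.768%) and 1 at day 1 (0.54%), Ifitm3 both times, WT day 7 gave 7 (15.3%) and mutant day 2 gave 2 (3.61%). The replicate term within WT gave 1 (Psmb8) for mutant minus WT at day 1 (4.52%) and 4 for the average (22%). Those calls may come too easily, for the reason given above. It gave 2, 6 and 13 for WT days 1, 2 and 7 (1.54%, 9.69% and 26.1%) and 4, 5 and 7 for mutant days 1, 2 and 7 (5.34%, 8.66% and 25.1%). A replicate block on the shared number used the same terms for mutant and WT, though the labels do not pair the genotypes. This block gave 7 for WT day 7 (15.4%), 0 for mutant day 1 (0.755%) and 1 for mutant day 2 (3.76%). The same numbers deviated together, at r over 0.1, in 10 of 16 mutant-with-WT pairs of days (r = -0.348 to 0.503). DESeq2 gave 7 for the average (19.7%), 2, 3 and 8 for WT days 1, 2 and 7 (2.08%, 8% and 21.1%) and 4 for mutant day 2 (7.88%). Fits on the compared groups alone gave 0 for WT day 7 (0.906%) and 6, 8 and 14 for mutant days 1, 2 and 7 (7.54%, 12.3% and 38.8%). Without the WT pair that stood apart mutant day 2 gave 2 (5.6%), and halved counts gave 5 for WT day 7 (14.2%). Without 1 library at a time, counts ran from 2 to 8 for the average (7.01 to 13%), 1 to 6 for WT day 7 (4.71 to 15.1%), 0 to 1, 0 to 2 and 1 to 5 for mutant days 1, 2 and 7 (0.00635 to 2%, 0.286 to 3.72% and 4.32 to 15.4%), and stayed at 0 for the other comparisons. The mutant day 2 count of 2 came without either WT day 2 library. The causes were not tested. Parp14 and Ifitm3 stayed called on average in every alternative, with adjusted p up to 0.0411 and 0.026. No alternative took each WT replicate series over the days as a single unit. Depth limits Ifit3, Ifit1, Isg15 and the other members near 0, where a few counts decide a value, and 2 libraries a group limit the single-day comparisons.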
